A study of Danio rerio with 6 samples.

Results

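Irradiated collecting ducts were set against whole kidney in adult zebrafish, using 4 of the 6 arrays of the series. The 2 arrays of irradiated ducts (irCD1 and irCD2) came from fish given 25 Gy of X-rays, and the 2 arrays of whole kidney (Kidney1 and Kidney2) came from fish for which the labels state no irradiation. The 2 arrays of unirradiated ducts (CD1 and CD2) served to show which duct features differed after irradiation. All fish of all 3 groups carried the transgene Tg(jam1a:EGFP), in which the promoter of the tight junction gene jam1a, now named f11r.1, drives green fluorescent protein. Ducts were picked by that fluorescence, so the groups differ in the choice of tissue as well as in irradiation. Each array held RNA pooled from 5 fish, and the pools are described as independent. The labels call the fish adult and give neither their sex nor the time from irradiation to dissection.

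The collecting duct is the last stretch of the renal tubule, where tight epithelium adjusts salt, acid, ammonia and water before urine leaves the kidney. In fish the kidney is also the adult blood-forming organ: stem cells, precursors of white and red cells, and mature blood cells fill the space between the tubules. Ionising radiation breaks DNA, which stabilises the transcription factor p53. That factor switches on genes of growth arrest, DNA repair and cell death, and dividing blood precursors are among the cells most readily lost.

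Levels are log2 RMA values, so a difference of 1 is a 2-fold difference. Array medians lay between 5.82 and 5.88, and levels under them are not shown to be above background; folds against such levels have an uncertain size. Differences are given with the moderated standard error (SE) from limma, and "past the threshold" means a Benjamini-Hochberg adjusted p under 0.05 over 15502 probe sets. The spread between arrays was unequal: the root mean square SD was 0.25 in irradiated ducts, 0.246 in unirradiated ducts and 0.465 in whole kidney. Hybridisation controls, which are added in fixed amounts and also depend on the handling of each array, averaged 9.70 and 9.85 in irradiated ducts, 10.86 and 11.37 in unirradiated ducts, and 8.73 and 10.45 in whole kidney. Centring on them kept the direction of every named gene past the threshold but lowered the count of calls, as given with the alternatives.

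Irradiated ducts had 963 probe sets past the threshold that were higher than in whole kidney (6.21% of those tested) and 657 that were lower (4.24%). Changes of at least 2-fold made up 831 of the higher and 543 of the lower ones. Counted with 1 probe set per gene, 563 of 8793 genes were higher (6.4%) and 454 lower (5.16%), with a median difference of -0.07 over all genes. Of the higher probe sets, 373 had a whole kidney mean under the array medians, and of the lower ones 314 had such a mean in irradiated ducts. For 55.3% of all probe sets the irradiated duct arrays and the kidney arrays did not overlap, so separate arrays alone mark nothing. With 1620 probe sets (10.5%) past the threshold in all, or 1017 genes (11.6%), the counts lean on each array: without irCD1 or irCD2, 337 and 308 probe sets were past the threshold, without either unirradiated array 783, and without Kidney2 there were 3183. A fit that leaves out an array takes the lone array of its group to vary like the others. Unirradiated ducts against the same kidney arrays gave 1126 calls (7.26%).

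The direct comparison of irradiated with unirradiated ducts gave far fewer calls, with 26 probe sets (0.168%) past the threshold, 12 of them higher (0.0774%) and 14 lower (0.0903%). At an unadjusted p under 0.05 it gave 2212. Without any one of the 4 duct arrays no probe set was past the threshold (923 to 1658 at an unadjusted p under 0.05), so differences between the duct groups are given below with their 95% confidence intervals. The 3' minus 5' difference of the gapdh control probe sets, a sign of RNA quality, set CD2 apart: it was 1.13 and 0.97 in irradiated ducts, 1.16 and 2.52 in unirradiated ducts, and 0.55 and 0.91 in whole kidney. All 26 probe sets kept their direction against CD1 alone, which their selection favours. With 2 arrays a group, a gene that is not past the threshold is not shown to be equal. Genes high in ducts of both kinds and genes that parted the duct groups are described separately.

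**Figure D1:**
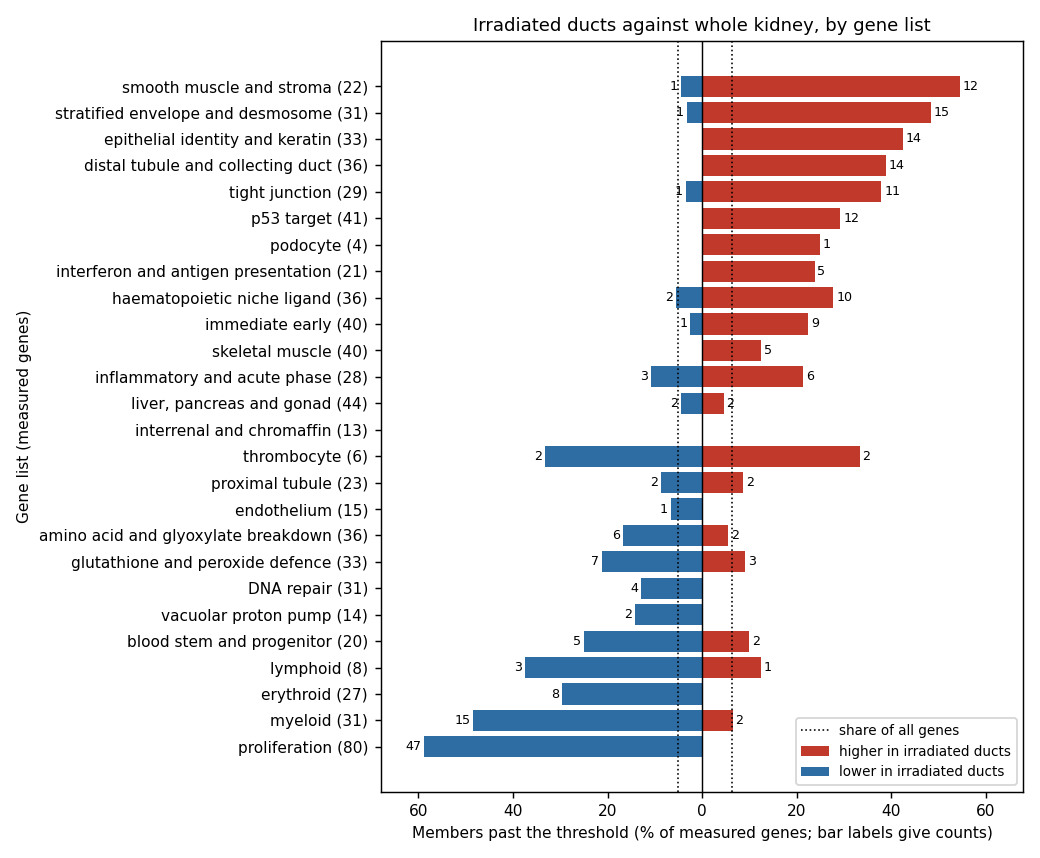
Share of each gene list past the threshold in irradiated ducts against whole kidney. Bars to the right give members higher in irradiated ducts and bars to the left members lower there, in percent of the measured genes named in parentheses; bar labels are counts, and dotted lines mark the share of all genes (6.4% higher, 5.16% lower). Smooth muscle, envelope, keratin, duct and junction genes reach furthest right, and proliferation and myeloid genes reach furthest left.

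The reporter's own gene stood above whole kidney after irradiation, which picking ducts by fluorescence from its promoter favours. f11r.1, which encodes a junctional adhesion molecule, read 11.59 and 11.56 in irradiated ducts, 11.54 and 11.39 in unirradiated ducts, and 10.36 and 10.20 in the kidney samples. Both irradiated arrays lay above both kidney arrays and level with the unirradiated ducts. Relative to whole kidney the gap was 2.46-fold (1.30 ± 0.16 log2, adjusted p = 0.00877), and it differed from unirradiated ducts by 0.11 (interval -0.28 to 0.50). Without irCD1 or irCD2 its adjusted p against whole kidney was 0.0724 and 0.0693.

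Genes of stratified epithelial surfaces were among those with the largest differences, s100w first among the genes named here. The S100 calcium-binding protein gene s100w read 10.75 and 11.65 in irradiated ducts, 11.54 and 11.22 in unirradiated ducts, and 4.87 and 6.04 in whole kidney. The kidney arrays lay far below (53.7-fold, 5.75 ± 0.47, adjusted p = 0.00312), and the duct groups overlapped. Sciellin (scel), a protein of the cornified envelope, read 8.19 and 8.86 in irradiated ducts, 8.88 and 8.43 in unirradiated ducts, and 3.79 and 4.27 in whole kidney (4.49 ± 0.31, adjusted p = 0.00239). The annexin gene anxa1c, the calpain protease gene capn9 and a second S100 gene, s100v1, were higher by 5.18 ± 0.57, 4.42 ± 0.44 and 4.41 ± 0.30. Of 31 measured genes of envelope and desmosome, 15 were higher and 1 lower, with a median of 1.57; without irCD1, irCD2 and Kidney2 the higher count was 8, 7 and 22. In 9 of the 15, whole kidney lay under the array medians.

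Some keratins and some transcription factors of epithelial cells were also higher. Of 15 keratins measured, 3 were higher and 0 lower, and 9 differed by less than 0.5. Keratin gene krt4 read 12.43 and 12.92 in irradiated ducts, 12.31 and 11.91 in unirradiated ducts, and 8.10 and 9.48 in whole kidney (3.89 ± 0.47, adjusted p = 0.00857). The forkhead factor foxa1, which opens chromatin in many endodermal and epithelial cells, read 9.41 and 9.32 in irradiated ducts, 9.54 and 9.73 in unirradiated ducts, and 4.87 and 5.53 in whole kidney. Ducts and kidney were far apart (4.16 ± 0.25, adjusted p = 0.00214) and the duct groups close (-0.27, interval -0.88 to 0.34). The related factor foxa3 was higher by 3.65 ± 0.22 and the epithelial ETS factor elf3 by 3.03 ± 0.27. Another keratin, krt91, read 12.36 and 12.41 in irradiated ducts and 6.32 and 9.32 in whole kidney, and the wide gap between the kidney arrays gave its difference of 4.57 an SE of 0.89. Of 33 genes of epithelial identity, 14 were higher and 0 lower (0 also at an unadjusted p under 0.05 in limma), with a median of 1.06; the higher count was 3 without irCD1, 3 without irCD2 and 21 without Kidney2.

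Tight junctions seal the duct wall, with claudins setting which ions pass between cells and occludins stabilising the strands. Occludin gene oclnb read 8.20 and 8.02 in irradiated ducts, 7.61 and 7.42 in unirradiated ducts, and 4.66 and 4.34 in whole kidney (3.61 ± 0.19, adjusted p = 0.00161). Claudin gene cldne read 7.04 and 6.83 in irradiated ducts, 6.94 and 6.55 in unirradiated ducts, and 2.87 and 3.57 in whole kidney (3.71 ± 0.28, adjusted p = 0.00285). Neither gene overlapped between irradiated ducts and kidney. The second occludin gene oclna was higher by 2.12 ± 0.23 and the claudin genes cldnf and cldnb by 2.72 ± 0.48 and 2.07 ± 0.28. A claudin outside this list, cldn23.1, was higher by 4.33 ± 0.25. Among 29 junction genes, 11 were higher and 1 lower, with a median of 0.46. That count was 2 without irCD1 and 2 without irCD2.

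Genes of the distal tubule and duct kept the irradiated samples apart from kidney in the same way. The zinc finger factor gata3, needed for the nephric duct in mammals, read 10.40 and 10.04 in irradiated ducts, 9.47 and 9.53 in unirradiated ducts, and 6.86 and 6.23 in whole kidney. The gap between irradiated ducts and kidney was 12.8-fold (3.67 ± 0.26, adjusted p = 0.00252). Ammonia channel gene rhcgb read 11.32 and 10.87 in irradiated ducts, 10.99 and 10.81 in unirradiated ducts, and 7.07 and 8.03 in whole kidney (3.54 ± 0.35, adjusted p = 0.00509). Its partner on the other cell face in mammals, rhbg, was higher by 3.54 ± 0.30, and the sodium pump subunit gene atp1a1a.3 by 3.55 ± 0.29. The T-box factor tbx2b was higher by 2.57 ± 0.31. A urea transporter gene outside the list, slc14a2, read 9.23 and 9.40 in irradiated ducts, 8.39 and 7.97 in unirradiated ducts, and 6.12 and 3.59 in whole kidney (4.46 ± 0.77, adjusted p = 0.0222); its kidney arrays were wide apart. Of 36 list genes, 14 were higher and 0 lower (2 at an unadjusted p under 0.05), with a median of 0.66. The higher count was 6 without irCD1 and 8 without irCD2 or either unirradiated array. Subunits of the vacuolar proton pump, which acid-secreting cells of the duct use, had 0 of 14 higher (0 at an unadjusted p under 0.05) and 2 lower, atp6v1e1b (-0.99 ± 0.18) and atp6v1f (-0.74 ± 0.16), neither past the threshold without any one duct array.

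**Figure D2:**
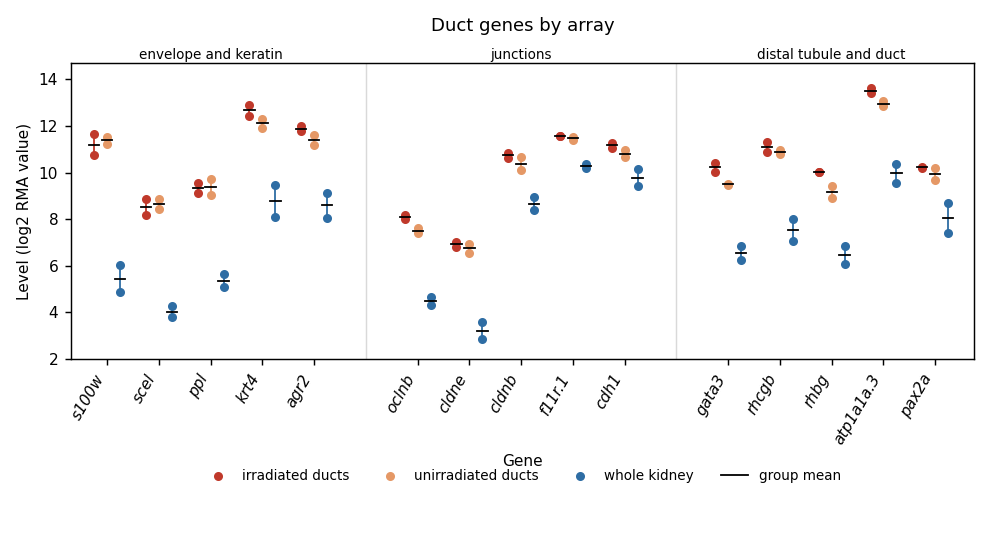
Log2 RMA level of duct genes in each array, with irradiated ducts in red, unirradiated ducts in orange and whole kidney in blue; points are arrays and black bars are group means of 2 arrays. All irradiated duct points lie above the kidney points of the same gene and near the unirradiated duct points, as for s100w, oclnb and gata3. Genes ppl, agr2, cdh1 and pax2a were added after their values were seen.

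Most listed duct genes that were higher than in kidney after irradiation lay near unirradiated ducts, within the precision of 2 arrays. The members higher than in kidney differed between irradiated and unirradiated ducts by less than 1 log2 unit for 11 of 11 junction genes, 14 of 15 envelope genes, 13 of 14 keratin and identity genes and 13 of 14 distal tubule and duct genes. The exceptions were anxa1c (1.03, interval -0.39 to 2.44), foxa3 (1.05, interval 0.50 to 1.60) and the water channel gene aqp8a.1 (1.01, interval 0.59 to 1.43), each higher in irradiated ducts and none past the threshold. Intervals lying wholly within 1 log2 unit of no difference covered 6, 4, 5 and 5 of those members. For the rest these intervals leave room for a 2-fold difference. They use a spread shared by all 3 groups, to which whole kidney adds most on average (root mean square SD 0.465). For krt91 the interval was -1.54 to 2.86, with kidney arrays at 6.32 and 9.32. Its duct arrays read 12.36 and 12.41 after irradiation and 11.68 and 11.77 without it. Over all 963 higher probe sets, 833 differed by less than 1 unit between the duct groups and 464 had intervals inside that range. With arrays centred on hybridisation controls, the median difference of all probe sets between the duct groups moved from -0.05 to 1.30, so these differences are relative to the scaling. These members were taken as higher in the same irradiated arrays, which favours high values there. A duct feature lost after irradiation, as sat2a.2 was (described below), could not enter these counts, so they do not measure how many features held. The envelope genes showed no one direction, with 9 of 15 higher in irradiated ducts. The keratin and identity genes and the distal tubule and duct genes were each higher there for 13 of 14. Over all 963 higher probe sets the median difference between the duct groups was 0.35. The share of them above 0 was not counted, so 13 of 14 does not set these lists apart.

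Several genes of contractile and connective tissue were also higher in irradiated ducts than in whole kidney. Smooth muscle actin gene acta2 read 11.76 and 12.39 in irradiated ducts, 12.25 and 12.13 in unirradiated ducts, and 9.70 and 7.36 in whole kidney (3.55 ± 0.73, adjusted p = 0.0356). Desmin gene desmb, an intermediate filament of muscle, read 8.56 and 9.72 in irradiated ducts, 9.55 and 9.29 in unirradiated ducts, and 4.88 and 4.83 in whole kidney (4.28 ± 0.38, adjusted p = 0.00384). In both genes every duct array lay above every kidney array. The actin-binding gene tagln was higher by 3.57 ± 0.64, the matrix gene postnb (periostin) by 3.71 ± 0.79 and the matrix gene tnn (tenascin N) by 5.20 ± 0.35, although a second tnn probe set gave 0.40 ± 0.25 (adjusted p = 0.377). Of 22 smooth muscle and stroma genes, 12 were higher and 1 lower, with a median of 1.82; the higher count was 5 without irCD1, 3 without irCD2 and 6 without either unirradiated array. Their mean level was 8.71 and 9.18 in irradiated ducts, 9.02 and 8.82 in unirradiated ducts, and 7.72 and 6.95 in whole kidney. Skeletal muscle genes had 5 higher of 40 (2 without either irradiated array), among them tnnt3b (2.86 ± 0.53), a fast troponin, and their mean levels were 5.93 and 5.62 in irradiated ducts, 5.98 and 6.66 in unirradiated ducts, and 5.08 and 5.18 in whole kidney. The desmin gene desmb is counted in both of these lists. Another of the 5 skeletal muscle genes, atp2a1, lay under the array medians in all 3 groups. In bulk samples more cells of a type and more RNA per cell cannot be told apart, here and below.

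The design text states that irradiated ducts were collected to look at the blood stem cell niche, so secreted and membrane-bound niche factors were listed. The ones past the threshold were mostly higher in irradiated ducts. The prostaglandin synthase gene ptgs2a, whose product prostaglandin E2 expands blood stem cells in zebrafish, read 6.84 and 6.59 in irradiated ducts, 5.66 and 5.54 in unirradiated ducts, and 3.99 and 3.96 in whole kidney. Arrays fell in that order with no overlap (2.74 ± 0.17 against kidney, adjusted p = 0.00217; 1.11 against unirradiated ducts, interval 0.71 to 1.52, adjusted p = 0.106). Its paralogue ptgs1 was higher than in kidney by 2.71 ± 0.19. The hedgehog ligand gene ihha read 6.89 and 7.68 in irradiated ducts, 5.69 and 5.16 in unirradiated ducts, and 4.50 and 4.62 in whole kidney (2.72 ± 0.31, adjusted p = 0.0079). For ptgs2a and ihha, unirradiated ducts and whole kidney both lay under the array medians, so the step between those groups has an uncertain size. Whole kidney lay under the medians in 6 of the 10 higher ligand genes. Growth factor genes mdka (midkine) and fgf10a were higher by 2.68 ± 0.36 and 2.40 ± 0.25, with unirradiated ducts within 0.36 of the irradiated ones. In all, 10 of 36 ligand genes were higher and 2 lower, with a median of 0.22; the higher count was 5 without irCD2, and no lower gene passed without irCD1 or irCD2. One of the lower genes, cxcl12a, encodes the chemokine that retains stem cells in marrow and was singled out after its values were seen: it read 10.64 and 10.75 in irradiated ducts, 10.64 and 10.80 in unirradiated ducts, and 12 and 12.22 in whole kidney (-1.42 ± 0.17, adjusted p = 0.00839).

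White blood cell genes were among the lowest in irradiated ducts, and several of them parted the duct groups as well. The lysozyme gene lyz, a granule enzyme of neutrophils and macrophages, read 9.20 and 9.05 in irradiated ducts, 11.99 and 12.20 in unirradiated ducts, and 13.17 and 13.18 in whole kidney. The groups stood in that order with no overlap: lyz was 16.6-fold lower in irradiated ducts than in kidney (-4.05 ± 0.16, adjusted p = 0.00157) and -2.97 ± 0.16 against unirradiated ducts (adjusted p = 0.0149). The carboxypeptidase gene cpa5, a mast cell marker in zebrafish, read 5.92 and 5.87 in irradiated ducts, 8.18 and 8.60 in unirradiated ducts, and 10.53 and 11.10 in whole kidney. Irradiated ducts lay 30.3-fold below kidney (-4.92 ± 0.25, adjusted p = 0.00161) and -2.50 ± 0.25 against unirradiated ducts (adjusted p = 0.0461). The pan-leukocyte phosphatase gene ptprc (CD45) read 6.34 and 6.67 in irradiated ducts, 8.41 and 8.31 in unirradiated ducts, and 9.00 and 8.88 in whole kidney. Both of its comparisons passed, at -2.44 ± 0.18 (adjusted p = 0.0026) and -1.86 ± 0.18 (adjusted p = 0.039).

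The rest of the myeloid list pointed the same way with exceptions. Of 31 measured genes, 15 were lower in irradiated ducts than in kidney and 2 higher, with a median of -1.34; the lower count was 10 and 11 without irCD1 and irCD2. All 15 had irradiated ducts below unirradiated ducts and these below whole kidney, without overlap of the arrays. Being chosen as lower than kidney favours that order, which 59.9% of all 454 lower genes had. Genes of leukotriene synthesis among the lowest were alox5ap and, outside the list, the lipoxygenase gene alox5b.3. The first, which presents arachidonate to 5-lipoxygenase, was lower by -3.44 ± 0.27, and the second by -4.46 ± 0.44. Both lay under the array medians in irradiated ducts, so these folds have no firm size. The pathway as a whole was not tested. The chemokine receptor gene cxcr4b, which answers to cxcl12a, read 6.58 and 6.65 in irradiated ducts, 9.01 and 8.48 in unirradiated ducts, and 10.22 and 9.51 in whole kidney (-3.25 ± 0.30, adjusted p = 0.00428). The granulocyte factor cebp1 was lower by -2.95 ± 0.59. A second cebp1 probe set, under the array medians in all arrays, gave -0.83 ± 0.38 (adjusted p = 0.24). The neutrophil peroxidase gene mpx, singled out after its values were seen, ran against the list: it read 11.60 and 12 in irradiated ducts, 10.87 and 9.79 in unirradiated ducts, and 10.62 and 10.05 in whole kidney (1.46 ± 0.40, adjusted p = 0.0791). Its other probe sets did not agree in direction, giving 3.01 ± 0.60 (adjusted p = 0.0339), 1.18 ± 0.25 (adjusted p = 0.0406) and -0.74 ± 0.17 (adjusted p = 0.0523).

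Lymphoid genes were few on the array. The T cell receptor constant gene trac read 4.59 and 4.75 in irradiated ducts, 7.59 and 7.14 in unirradiated ducts, and 7.22 and 6.96 in whole kidney. Irradiated ducts alone lay low, by -2.42 ± 0.21 against kidney (adjusted p = 0.00385) and -2.69 ± 0.21 against unirradiated ducts (adjusted p = 0.0272), while its other probe sets gave -0.23 and -0.84 against kidney. The lymphoid factor ikzf1 was lower than in kidney by -1.46 ± 0.19 and the recombinase gene rag2 by -0.87 ± 0.19. In irradiated ducts trac, ikzf1 and rag2 lay under the array medians, as did igl1c1 and itga2b, described next. Folds for these genes have no firm size. Levels of rag2 were under the medians in whole kidney and unirradiated ducts as well. An immunoglobulin light chain gene, igl1c1, read 4.70 and 4.47 in irradiated ducts, 6.05 and 6.54 in unirradiated ducts, and 9.87 and 8.06 in whole kidney (-4.38 ± 0.57, adjusted p = 0.0106). The B cell adaptor gene blnk ran the other way, at 9.45 and 9.03 in irradiated ducts, 8.67 and 7.76 in unirradiated ducts, and 6.31 and 6.37 in whole kidney (2.90 ± 0.33, adjusted p = 0.00742). Of 8 list genes 3 were lower and 1 higher, with 1 lower without irCD1 or irCD2 and 5 without Kidney2. Of 6 thrombocyte genes 2 were lower, itga2b (-2.97 ± 0.28), the fibrinogen receptor subunit, and nfe2 (-1.39 ± 0.25), and 2 higher, the matrix genes fn1b (2.84 ± 0.31) and thbs1b (2.56 ± 0.41), which connective tissue also makes; the lower count was 1 without any one duct array and 4 without Kidney2.

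Some red cell genes were also lower than in kidney. The heme enzyme gene urod read 6.47 and 6.55 in irradiated ducts, 6.21 and 6.25 in unirradiated ducts, and 9.25 and 8.43 in whole kidney (-2.33 ± 0.28, adjusted p = 0.00872). The red cell carbonic anhydrase gene cahz read 9.19 and 8.08 in irradiated ducts, 8.20 and 8.89 in unirradiated ducts, and 11.07 and 10.79 in whole kidney (-2.29 ± 0.42, adjusted p = 0.026). In both genes the kidney stood alone. The beta globin gene hbba2 differed, with 9.99 and 9.64 in irradiated ducts, 11.41 and 12.14 in unirradiated ducts, and 13.51 and 13.32 in whole kidney (-3.60 ± 0.28, adjusted p = 0.00303; -1.96 against unirradiated ducts, interval -2.66 to -1.27, adjusted p = 0.103). Of 27 erythroid genes 8 were lower and 0 higher (2 at an unadjusted p under 0.05), with a median of -1.55 against kidney and 0.01 against unirradiated ducts. Of the 8, 7 differed by less than 1 log2 unit between the duct groups, 2 of them with intervals inside that range. Over all 657 lower probe sets, 547 differed by less than 1 unit and 279 had intervals inside that range. In 3 of the 8, irradiated ducts lay below unirradiated ducts and these below kidney without overlap. Of all 454 lower genes 59.9% had that order. The lower count was 4 without irCD1 or either unirradiated array, 1 without irCD2 and 14 without Kidney2. Among 20 genes of stem and progenitor cells 5 were lower, including myb (-1.85 ± 0.24) and tal1 (-1.77 ± 0.34), which blood stem cells need, and 2 higher, of which gata2a (2.13 ± 0.32) is also a gene of other tissues; without irCD1 and irCD2 the lower count was 2 and 0.

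**Figure D3:**
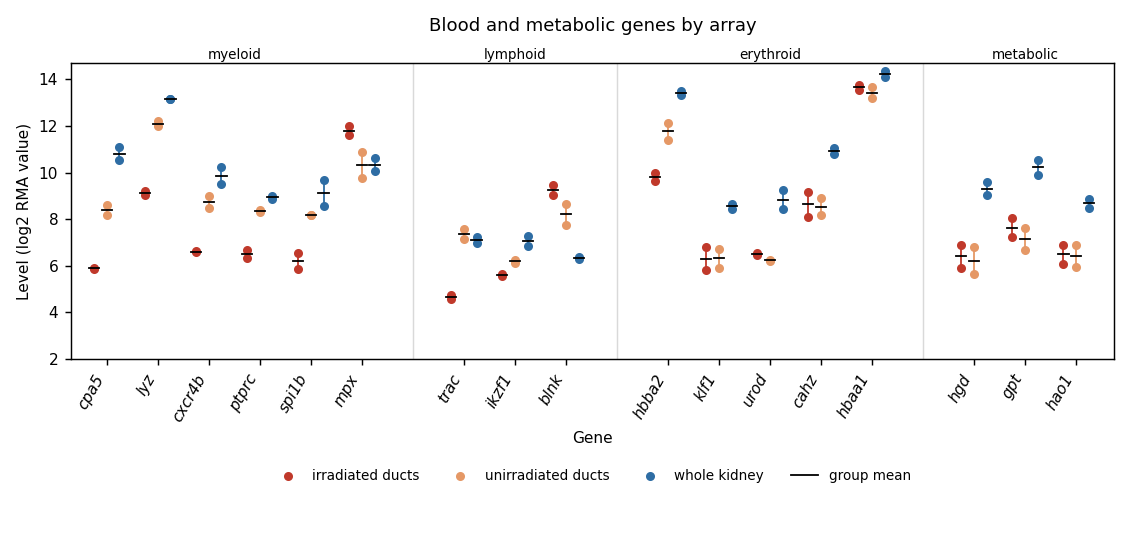
Log2 RMA level of blood cell and metabolic genes in each array, with irradiated ducts in red, unirradiated ducts in orange and whole kidney in blue; points are arrays and black bars are group means of 2 arrays. For cpa5, lyz and cxcr4b the groups stand in 3 steps, for urod and gpt both duct groups lie together below kidney, and mpx and blnk are highest in irradiated ducts. Genes spi1b, mpx, klf1 and hbaa1 were added after their values were seen.

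Cell division genes formed the largest lower group. The mitotic kinesin gene kif11 read 4.16 and 4.62 in irradiated ducts, 6.03 and 5.44 in unirradiated ducts, and 8.72 and 7.36 in whole kidney (-3.65 ± 0.48, adjusted p = 0.0106). Cyclin gene ccnb1, which drives entry into mitosis, read 5.29 and 5.38 in irradiated ducts, 6.16 and 5.74 in unirradiated ducts, and 8.90 and 7.85 in whole kidney (-3.04 ± 0.36, adjusted p = 0.00847). Irradiated ducts were too dim in both genes for the folds to have a firm size. The spindle checkpoint gene mad2l1 was lower by -3.07 ± 0.37, also with irradiated ducts under the array medians. Of 80 division genes 47 were lower and 0 higher (0 at an unadjusted p under 0.05), with a median of -1.66 against kidney and -0.55 against unirradiated ducts, and 43 of the 47 had the unirradiated ducts in between without overlap, as had 59.9% of all lower genes. Irradiated ducts lay under the array medians for 32 of the 47. The division genes averaged 5.20 and 5.24 in irradiated ducts, 5.85 and 5.66 in unirradiated ducts, and 7.25 and 6.45 in whole kidney. The count of lower genes fell to very few without irCD1 or irCD2, and fell by less without either unirradiated array. It rose without either kidney array, and the reason was not tested. Of 31 DNA repair genes 4 were lower (1, 0 and 12 without irCD1, irCD2 and Kidney2), namely h2ax (-2.05 ± 0.38), rpa2 (-1.93 ± 0.20), lig1 (-1.28 ± 0.17) and rpa1 (-0.94 ± 0.20), which also serve replication.

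Some metabolic enzymes, which the proximal tubule holds in quantity, were lower in irradiated ducts than in whole kidney, while most listed ones were not past the threshold. The tyrosine pathway enzyme gene hgd read 5.92 and 6.90 in irradiated ducts, 5.65 and 6.80 in unirradiated ducts, and 9.02 and 9.58 in whole kidney (-2.89 ± 0.49, adjusted p = 0.0219). Alanine aminotransferase gene gpt was lower by -2.59 ± 0.44, the histidine pathway gene uroc1 by -2.48 ± 0.38, and the glyoxylate pathway genes hoga1 and hao1 by -2.39 ± 0.46 and -2.20 ± 0.40. The mean levels of the duct groups differed by 0.52 at most in these genes. Arginase gene arg2 ran the other way, at 12.26 and 11.70 in irradiated ducts, 10.85 and 10.42 in unirradiated ducts, and 9.56 and 8.31 in whole kidney (3.04 ± 0.44, adjusted p = 0.0143). Of 36 amino acid genes 6 were lower and 2 higher (median -0.47), and of 23 proximal genes 2 were lower and 2 higher (median -1.20); without irCD1 or irCD2 no amino acid gene was lower, without Kidney1 15 were, and the proximal list had 5 lower without Kidney1. Peroxide defence was mixed, with 7 of 33 genes lower, among them the glutathione transferase gene gstt1a (-1.77 ± 0.27) and catalase (cat, -1.58 ± 0.27), and 3 higher; 1 and 0 were lower without irCD1 and irCD2. Glutathione peroxidase gene gpx1b was the highest of these, at 12.95 and 13.10 in irradiated ducts, 11.92 and 12.02 in unirradiated ducts, and 8.80 and 10.17 in whole kidney (3.54 ± 0.43, adjusted p = 0.00878).

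A minority of the genes switched on by p53 were higher in irradiated ducts than in kidney, and mdm2 alone of the list was past the threshold against unirradiated ducts as well. The ubiquitin ligase gene mdm2, a p53 target that in turn removes p53, read 9.51 and 9.56 in irradiated ducts, 7.21 and 6.89 in unirradiated ducts, and 7.90 and 8.01 in whole kidney. Here the unirradiated ducts were the lowest group; irradiated ducts were higher than kidney by 1.59 ± 0.17 (adjusted p = 0.00707) and higher than unirradiated ducts by 2.48 ± 0.17 (adjusted p = 0.0184). The ribosomal protein-like gene rps27l, a p53 target in mammals, read 11.97 and 12.02 in irradiated ducts, 8.78 and 9.15 in unirradiated ducts, and 9.38 and 10.37 in whole kidney (2.12 ± 0.34, adjusted p = 0.0189). Its difference from unirradiated ducts was the largest of the list (3.04, interval 2.19 to 3.88) but missed the threshold (adjusted p = 0.0606). The death-promoting genes bbc3 (Puma) and phlda3 were higher than in kidney by 2.12 ± 0.30 and 2.19 ± 0.29, and gadd45bb by 1.79 ± 0.17. For bbc3 and phlda3 unirradiated ducts lay 1.65 and 2.32 lower than irradiated ones, while for gadd45bb they lay within 0.14.

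Of 41 measured p53 targets 12 were higher than in kidney and 0 lower (3 at an unadjusted p under 0.05), with a median of 0.40. In 11 of the 12, irradiated ducts lay above unirradiated ducts without overlap; of all 563 genes higher than in kidney 60.2% had that order, which being chosen as high in the same irradiated arrays favours. Of the 12, 9 differed there by at least 1 log2 unit, and 1 (mdm2) was past the threshold. The count against kidney was 1 without irCD1, 2 without irCD2 and 8 without either unirradiated array. The list's median against unirradiated ducts was 0.19.

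Some interferon and inflammatory genes were higher in irradiated ducts as well. The ubiquitin-like gene isg15, held by both the p53 and the interferon list, read 10.62 and 10.81 in irradiated ducts, 8.96 and 8.45 in unirradiated ducts, and 7.71 and 8.82 in whole kidney (2.45 ± 0.39, adjusted p = 0.018). The exonuclease gene isg20, an antiviral enzyme in mammals, read 8.05 and 7.83 in irradiated ducts, 5.66 and 5.90 in unirradiated ducts, and 6.44 and 6.09 in whole kidney. Irradiated ducts were higher than kidney (1.67 ± 0.20, adjusted p = 0.00858) and than unirradiated ducts (2.16 ± 0.20, adjusted p = 0.0378). Interferon regulatory factor genes irf7, irf1b and irf9 were higher than in kidney by 1.27 ± 0.21, 1.24 ± 0.17 and 1.08 ± 0.17. In all 5 of 21 interferon genes were higher and 0 lower (0 at an unadjusted p under 0.05), with a median of 0.49; none passed without irCD1 or without irCD2, and 8 without Kidney2. The chemokine gene cxl34b.11 read 9.51 and 9.75 in irradiated ducts, 6.96 and 6.81 in unirradiated ducts, and 5.74 and 5.21 in whole kidney, in 3 separate steps (4.16 ± 0.23 against kidney, adjusted p = 0.00163; 2.75 ± 0.23 against unirradiated ducts, adjusted p = 0.0276).

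A second chemokine gene, ccl19a.1, read 12.12 and 12.27 in irradiated ducts, 10.84 and 10.21 in unirradiated ducts, and 8.38 and 8.22 in whole kidney (3.89 ± 0.24, adjusted p = 0.00224). Another, cxcl14, was a feature of ducts of both kinds: it read 10.45 and 10.61 in irradiated ducts, 10.66 and 10.20 in unirradiated ducts, and 7.26 and 7.01 in whole kidney (3.39 ± 0.22, adjusted p = 0.00231; 0.10 against unirradiated ducts, interval -0.44 to 0.63). Of 28 inflammatory genes 6 were higher and 3 lower, with a median of 0.90; the higher count was 4 without irCD2 and 10 without Kidney2. The lower ones included timp2b, an inhibitor of matrix proteases (-2.31 ± 0.31), with unirradiated ducts within 0.11 of the irradiated ones.

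**Figure D4:**
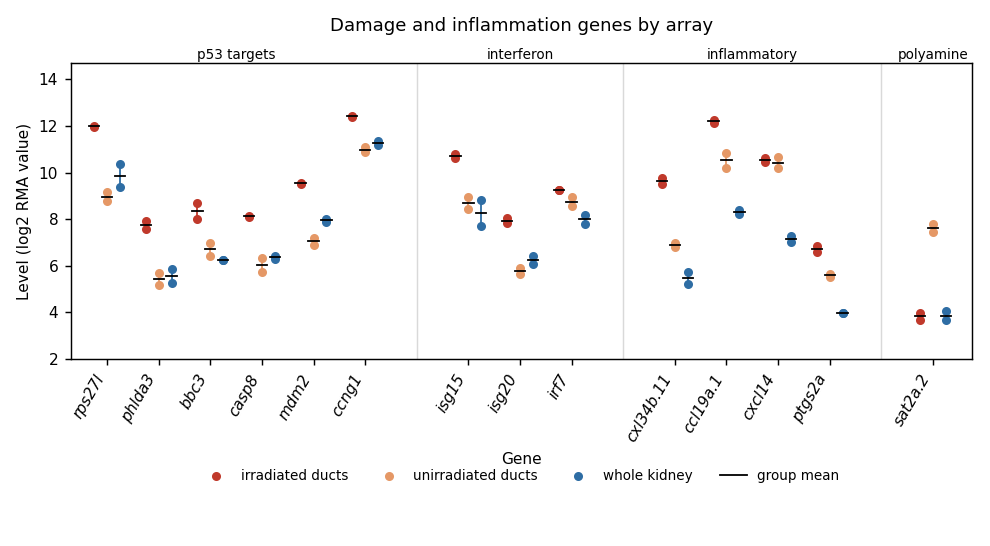
Log2 RMA level of p53 target, interferon and inflammatory genes and of sat2a.2 in each array, with irradiated ducts in red, unirradiated ducts in orange and whole kidney in blue; points are arrays and black bars are group means of 2 arrays. For mdm2, rps27l and phlda3 irradiated ducts stand alone at the top, for cxl34b.11 the groups form 3 steps, for cxcl14 the duct groups coincide, and for sat2a.2 unirradiated ducts stand alone at the top. Genes casp8 and ccng1 were added after their values were seen.

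Immediate early genes, which many stimuli and tissue handling switch on within minutes, were higher than in kidney for a minority of the list. The AP-1 factor fosab read 11.59 and 11.03 in irradiated ducts, 11.51 and 11.73 in unirradiated ducts, and 7.47 and 6.35 in whole kidney (4.40 ± 0.40, adjusted p = 0.0041). Its other 3 probe sets were also higher than in kidney, but they did not place the duct groups alike. One had overlapping duct groups, while one read 10.76 and 9.89 in irradiated ducts against 9.73 and 8.98 in unirradiated ducts, and another 10.49 and 9.56 against 9.00 and 7.5. The dimer partners of fosab, junbb and junba, were higher than in kidney by 2.71 ± 0.39 and 2.43 ± 0.32, and ier2a by 2.03 ± 0.38. Of 40 such genes 9 were higher and 1 lower, with a median of 0.49; 2 and 3 were higher without irCD1 and irCD2. By the probe sets with the highest mean, 1 of the 9 had irradiated above unirradiated ducts without overlap. Of all 563 genes higher than in kidney, 60.2% had that order. Ducts were picked out by fluorescence and whole kidney was not, so handling and tissue cannot be told apart here.

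In the direct comparison of the duct groups 12 genes of 8793 were past the threshold (0.136%), with 6 in each direction (0.0682% each). Of those, 11 had a name beyond a locus number, and 10 of them also passed against kidney; both comparisons use the same irradiated arrays. The exception was sat2a.2, annotated as an acetyltransferase of the spermidine/spermine family, which read 3.99 and 3.68 in irradiated ducts, 7.46 and 7.81 in unirradiated ducts, and 3.68 and 4.05 in whole kidney. Irradiated ducts and kidney overlapped (-0.03 ± 0.23, adjusted p = 0.959), both under the array medians, and unirradiated ducts alone stood high (-3.80 ± 0.23 for irradiated against unirradiated ducts, adjusted p = 0.0149). Among these 11 genes it alone was higher in unirradiated ducts than in kidney and at kidney level after irradiation. The gene bmb (brambleberry, needed for nuclear envelope fusion in zebrafish embryos) read 7.85 and 8.52 in irradiated ducts, 5.26 and 5.13 in unirradiated ducts, and 5.12 and 5.45 in whole kidney (2.90 ± 0.26 against kidney, adjusted p = 0.00411). The somatostatin family gene sst2 read 6.71 and 7.19 in irradiated ducts, 4.76 and 4.84 in unirradiated ducts, and 4.48 and 4.57 in whole kidney (2.42 ± 0.20, adjusted p = 0.0034). For both, irradiated ducts stood alone above the array medians. The ubiquitin ligase gene lnx1 was higher by 0.94 ± 0.17 against kidney and 1.67 ± 0.17 against unirradiated ducts.

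Lists of podocyte, endothelial, interrenal and chromaffin genes, and of liver, pancreas and gonad genes, had few members past the threshold. Of all genes 6.4% were higher and 5.16% lower, so these small counts alone do not set the lists apart. Of 4 podocyte genes 1 was higher, cd2ap (0.76 ± 0.17), and of 15 endothelial genes 1 was lower, fli1 (-0.92 ± 0.21). At an unadjusted p under 0.05 in limma, 7 endothelial genes were lower and 0 higher, and 4 were lower past the threshold without Kidney2 and 0 without any other one array (1 was higher without Kidney1). Of 13 interrenal and chromaffin genes 0 passed in limma (0 at an unadjusted p under 0.05), and the list's mean level was 4.97 and 4.46 in irradiated ducts, 5.27 and 5.37 in unirradiated ducts, and 4.89 and 5.32 in whole kidney. Of 44 genes of liver, pancreas and gonad 2 were lower, the lipoprotein genes apoea (-1.66 ± 0.19) and apobb.1 (-1.15 ± 0.21). Both lay under the array medians in irradiated ducts, and apobb.1 did so in whole kidney as well. The 2 higher genes were sst2 and the retinol carrier gene rbp4. Levels of rbp4 were 12.50 and 12.52 in irradiated ducts, 11.88 and 11.54 in unirradiated ducts, and 9.95 and 9.67 in whole kidney (2.70 ± 0.19, adjusted p = 0.00256). Other genes among the largest and lowest differences from kidney were the fucosyltransferase gene fut9b.4 (5.48 ± 0.25), the synaptic release site gene rims2a (4.97 ± 0.37), cuzd1.1 (4.28 ± 0.53), the myeloid membrane gene nrros (-3.40 ± 0.19), cdca7a (-3.24 ± 0.49), tnfaip8l2a (-3.18 ± 0.25) and the polarity scaffold gene lin7b (-3.05 ± 0.24).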

How the data were processed

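The deposited log2 values, 1 per probe set and array, are the authors' RMA output; the submitters' processing notes name the affy package too, without a version. RMA subtracts background, equalises the arrays' distributions and combines the probes of a set, which can compress differences. The labels give total RNA, biotin labelling by a 3' kit and 6 arrays. No value was transformed further, and arrays give no counts, so the number of arrays limits precision. The table held 15617 probe sets, of which 115 are array controls and entered no test. Gene names were read from the platform annotation and updated through a current gene table: of the tested probe sets 10795 named 1 gene, 135 several and 4572 none, covering 8793 genes, of which 618 had locus numbers for symbols.

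The comparisons used limma 3.58.1 under R 4.3.3, with all 6 arrays in 1 fit, 3 residual degrees of freedom and a prior of 2.83, two-sided, with Benjamini-Hochberg adjustment per comparison. P-values measure the spread between these pools. The fit was tested on simulated data. A gene stands for its probe set with the highest mean. Of 1246 list entries, 746 were measured and 17 matched by synonym. Named were f11r.1, 14 genes of the largest and 14 of the lowest difference (past the threshold, at least 1 log2 unit, arrays not overlapping), up to 5 members per list, and named genes past the threshold between duct groups. Members and lists were chosen with earlier results of these data known. Other genes are counted, or said to be chosen after their values were seen. Alternatives were compared groups alone, a replicate block, 2 centrings, a filter at a mean of 6, trended and robust eBayes, array weights, other thresholds and each array left out.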

Additional observations from a re-analysis of the deposited data

Results flagged for a closer look

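An array control outside the tested probe sets, the 3' control for muscle actin (actc1b in the platform table), stood higher in irradiated ducts than in whole kidney by 2.2 on the log2 scale. It read 9.81 and 8.56 in irradiated ducts, 9.82 and 10.49 in unirradiated ducts, and 6.96 and 7.01 in whole kidney. Probe sets named after array controls enter no comparison of the report. The tested actc1b probe set with the highest mean differed from whole kidney by 1.96 ± 0.21 (limma adjusted p = 0.00609). The part of muscle attached to the ducts in this value was not tested.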

How the results depend on the processing

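For irradiated ducts against whole kidney the 1620 calls became 783 with the compared groups alone, 225 (131 higher, 94 lower) with arrays centred on hybridisation controls, 417 at an adjusted p under 0.01, and 308 to 3183 with 1 array left out. Hybridisation centring moved the median difference of all probe sets from -0.05 to -0.23. For irradiated against unirradiated ducts the 26 calls became 217 with these groups alone, 0 with a replicate block (1906 at an unadjusted p under 0.05), 9 with the filter at a mean of 6, 150 with hybridisation centring (149 higher, 1 lower, median 1.30), 243 with array weights, and 0 to 217 with 1 array left out. For unirradiated ducts against whole kidney the 1126 calls became 422 with these groups alone, 2155 with hybridisation centring (41 higher, 2114 lower, median -1.52), 615 with array weights, and 0 to 3373 with 1 array left out. The replicate block gave 1393 calls for irradiated ducts against kidney. The numbers are not stated to pair samples, and deviations of same-numbered arrays correlated at -0.0976 to 0.0633. f11r.1 kept its direction, at 1.11 with hybridisation centring (adjusted p = 1.0) and 1.21 to 1.38 with 1 array left out. The 142 named genes compared with kidney include some not past the threshold, which have no call to lose. Of those past it, none changed sign. Genes not past it did: with 1 array left out wt1a ranged from -0.44 to 0.08, ptpro from -0.22 to 0.02, dbh from -0.22 to 0.04 and sat2a.2 from -0.22 to 0.16, and sat2a.2 was 0.0 with median centring. Calls were lost for 64 of 142 with hybridisation centring, 68 without irCD1 and 72 without irCD2. The causes of these shifts were not tested. Fits with fewer arrays also have fewer degrees of freedom.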

Other observations

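Arrays of one group differed most in whole kidney: 222 probe sets were at least 2 log2 units apart between Kidney1 and Kidney2, against 25 between irCD1 and irCD2 and 10 between CD1 and CD2. The genes below were chosen for these gaps, after their values were seen. The class I histocompatibility gene mhc1ufa read 10.98 and 11.08 in irradiated ducts, 10.92 and 10.78 in unirradiated ducts, and 10.12 and 4.19 in whole kidney. The class II gene mhc2daa read 6.65 and 8.45 in irradiated ducts, 9.12 and 8.49 in unirradiated ducts, and 2.49 and 7.58 in whole kidney. Keratin gene krt5, a marker of surface epithelium, read 10.86 and 10.69 in irradiated ducts, 10.51 and 10.85 in unirradiated ducts, and 5.64 and 10.67 in whole kidney, so Kidney2 alone stood at the duct level.

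Between the irradiated arrays the widest gap was in ddc, the enzyme that makes dopamine and serotonin, at 10.64 in irCD1 and 6.09 in irCD2, with 11.99 and 12.23 in unirradiated ducts and 10.06 and 12.52 in whole kidney. Acute phase gene saa read 4.88 in irCD1 and 8.68 in irCD2, against 4.89 and 4.75 in unirradiated ducts and 3.80 and 4.27 in whole kidney. The stress gene ddit4 read 8.68 in irCD1 and 4.95 in irCD2, and the retinoic acid hydroxylase gene cyp26a1 read 4.43 and 7.92. The gene ddc is a member of the interrenal and chromaffin list, so its gap enters that list's mean levels. Keratin gene krt5 is a member of the epithelial identity list. Neither was past the threshold against whole kidney in limma (adjusted p = 0.295 and 0.334).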
